A study of Mus musculus with 22 samples.

Results

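The transcriptomes of 4 mouse embryos that lack Nanog were set against those of 4 embryos that carry it, all at embryonic day 3.5, the blastocyst stage. The Nanog-null embryos were 2 females (F1 and F2) and 2 males (M1 and M2). The Nanog-bearing embryos were 1 female and 1 male of wild-type genotype and 1 female and 1 male heterozygous for Nanog. These 8 libraries were taken by genotype out of the 22 of the study, whose other 14 come from 7 embryonic stem (ES), trophoblast stem (TS) and extraembryonic endoderm (XEN) cell lines. Each library is 1 whole embryo, so epiblast, primitive endoderm and trophectoderm are mixed in it. Fewer cells of a type and less RNA per cell cannot be told apart. The labels read here name neither the strain nor how the null allele was made.

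Nanog is a homeodomain transcription factor of the pluripotent inner cells of the blastocyst. Those inner cells sort into epiblast, which goes on to form the fetus, and primitive endoderm, which covers it and lays down laminin and collagen IV as a basement membrane. Around both, the trophectoderm is an epithelium sealed by junctions that pumps fluid into the cavity. In mouse embryos without Nanog the epiblast is known not to be maintained.

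RNA was converted to amplified cDNA, and the deposited table held 14768624 to 32231620 counts per embryo. Of 21881 gene symbols, 12965 passed the filter on low counts and were tested. Values are given as CPM, counts set relative to the TMM-scaled library size, and a gene is called well counted where its mean over the 8 embryos reached 32 CPM, which 4791 genes did. Null M2 stood apart from the other 7 embryos: its rank correlations with them over well-counted genes were 0.665 to 0.736, against 0.863 to 0.900 among the Nanog-bearing embryos and 0.765 to 0.807 among the other 3 null embryos. Pou5f1 of the inner cells, Gata6 of primitive endoderm and Cdx2 of trophectoderm were present in all 8 embryos, at 371 to 536, 108 to 233 and 31.9 to 87.8 CPM. Other primitive endoderm markers differed in level. Pdgfra averaged 24.8 CPM in null and 67 CPM in Nanog-bearing embryos, while Gata4 and Sox17 were scarce. Gata4 was at 0 to 3.44 CPM in null and 0.0634 to 16 CPM in Nanog-bearing embryos, and Sox17 at 0 to 2.16 and 1.69 to 3.09 CPM. A list of 9 blood cell genes summed to 4.63 to 19.9 CPM per embryo and a pair of cumulus and oviduct genes to 0.0622 to 16.4 CPM.

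The gene missing by design was nearly absent from the null embryos. Nanog was at 130 and 103 CPM in the wild-type female and male and at 87.4 and 50.1 CPM in the heterozygous female and male. In null F1, F2, M1 and M2 it was at 0.497, 0.326, 0.602 and 0.351 CPM, from 6 to 12 counts each. The log2 fold change, null minus the mean of the wild-type and heterozygous groups, was -7.61 ± 0.51 (SE, adjusted p = 0.000501, edgeR quasi-likelihood test). Nanogpd, a Nanog pseudogene, also fell, by 9.05 ± 1.07 on the log2 scale (adjusted p = 0.0477, edgeR). Reads of near-identical copies may have been split between them, so its value is not independent of Nanog. These were the only genes called at an adjusted p under 0.05, or 0.0154% of the 12965 tested. At an unadjusted p under 0.05 there were 644 genes, or 4.97%.

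Against each Nanog-bearing genotype on its own, with the same null embryos in both comparisons, the calls were 2 genes (0.0154%) against wild type and 1 gene (0.00771%) against heterozygous embryos. Nanog was -8.00 ± 0.53 (SE) against wild type and -7.22 ± 0.52 against heterozygous on the log2 scale. No gene had a difference between the sexes in its null effect at an adjusted p under 0.05 by edgeR, where 513 genes (3.96%) had an unadjusted p under 0.05 and DESeq2 called 104.

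Single genes therefore seldom passed, and consistency over embryos was described instead: a gene was counted where all 4 null values lay above, or all 4 below, all 4 Nanog-bearing values. Among the 4791 well-counted genes the ranges did not overlap for 243 (5.07%), 153 of them higher in null embryos (3.19%) and 90 lower (1.88%). By an unadjusted p under 0.05 there were 301 well-counted genes (6.28%), 222 higher (4.63%) and 79 lower (1.65%). The differences without overlap were moderate. The median log2 fold change was 0.70 for the higher genes, 130 of which were at 1 or less, and -0.74 for the lower genes, 63 of which were at -1 or more. Below the limit of 32 CPM the picture was turned the other way, with 59 of 8174 genes higher (0.722%) and 373 lower (4.56%). The split of the well-counted genes depended on the scaling: the higher genes made up 63.0% of the 243 with TMM, but 72.4% with median-of-ratios factors, 48.7% with TMM on the well-counted genes alone and 42.5% with library totals. In all 5 scalings tried, 77 genes were higher and 57 lower without overlap.

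**Figure D1:**
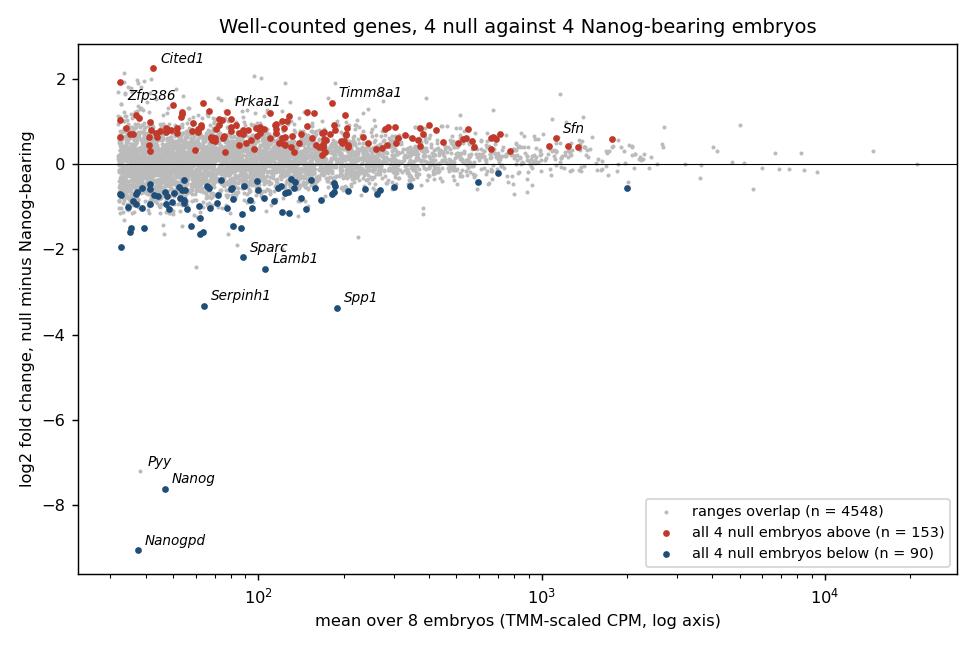
Each point is 1 of the 4791 well-counted genes, with its mean over the 8 embryos in TMM-scaled CPM (horizontal, log axis) and its log2 fold change, null minus Nanog-bearing (vertical). The 153 genes whose 4 null values lay above all Nanog-bearing values are red and the 90 whose values lay below are blue. Apart from Nanog and Nanogpd, most coloured genes lie within 1 log2 unit of 0, and Spp1, Serpinh1, Lamb1 and Sparc lie farther down.

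Of the 36 lists with well-counted genes, that of the basement membrane had the lowest median. All 8 of its well-counted genes had negative fold changes, with a median of -1.29 against 0.08 for all well-counted genes. For 4 of the 8 (Lamb1, Lamc1, Lama5 and Sparc) all null embryos were below all Nanog-bearing embryos, where 1.88% of well-counted genes were, and none of the 8 was called by edgeR. Summed over the 13 genes of the list, basement membrane RNA was at 1227 and 992 CPM in the wild-type female and male and at 723.7 and 867.6 CPM in the heterozygous female and male. In null F1, F2, M1 and M2 the sum was 507.4, 404.7, 548.4 and 239.9 CPM. The groups did not overlap, and null M2 was lowest. Without null M2 the median was -1.18 with 6 of 8 genes lower, and with an offset for transcript length it was -1.28 with 8 of 8 lower.

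Lamb1 encodes the beta chain of laminin-111. It was at 253 and 180 CPM in the wild-type female and male and at 137 and 142 CPM in the heterozygous ones. In null F1, F2, M1 and M2 it was at 10.8, 36.3, 40.5 and 44 CPM, each far below the lowest Nanog-bearing value. The log2 fold change was -2.46 ± 0.43 (SE, edgeR adjusted p = 0.68). Lamc1, the gamma chain, averaged 32.1 ± 14.7 CPM (SD, n = 4) in null and 83.4 ± 24.2 CPM (SD, n = 4) in Nanog-bearing embryos. Lama5, an alpha chain, averaged 44.6 ± 18.6 and 118 ± 24.8 CPM. It belongs to other laminin trimers, and the alpha chain of laminin-111 is Lama1, whose mean over the 8 embryos was under the limit of 32 CPM. Lama1 was at 83.6 and 14.9 CPM in the wild-type female and male, at 9.22 and 19.6 CPM in the heterozygous ones and at 5.1, 0, 0.1 and 0.937 CPM in null F1, F2, M1 and M2. The wild-type female stood far above all others, and the groups did not overlap.

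Sparc encodes a collagen-binding matrix glycoprotein. It was at 237 and 172 CPM in the wild-type female and male, and at 67.4 and 106 CPM in the heterozygous ones. The null embryos had 49.7, 30.9, 38.6 and 3.69 CPM in F1, F2, M1 and M2. The heterozygous embryos thus lay between the wild-type and the null embryos, and the log2 difference was -2.76 ± 0.71 (SE) against wild type and -1.60 ± 0.72 against heterozygous. Col4a1, a collagen IV chain, averaged 19.9 ± 7.41 CPM in null and 46.7 ± 20.9 CPM in Nanog-bearing embryos (SD, n = 4), with overlapping ranges. Nid2, a laminin-binding nidogen, had a log2 fold change of -0.49 ± 0.51 (SE). Nid1 and the laminin receptor Dag1 were at -0.17 ± 0.39 and -0.22 ± 0.54, and both turned positive, to 0.15 and 0.18, without null M2.

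The windows upstream of these genes are shown because the genes were low together and their starts can be compared. Each is the 250 bases before the RefSeq transcription start in build GRCm38.p6, which is not the mm9 build of the counts, 5′ to 3′ on the gene's strand. Capitals mark matches, on either strand, to any of 5 motifs: AGATAA of GATA factors, ACAATG of SOX factors, the octamer ATGCAAAT of POU factors, the GC box GGGCGG and the TATA box TATAAA. The windows of Lamb1 (chr12:31265043-31265292, plus strand), Lama5 (chr2:180225860-180226109, minus strand), Sparc (chr11:55420081-55420330, minus strand) and Spp1 (chr5:104434861-104435110, plus strand; the first of 2 starts) read as follows, and Lamc1 is not shown.
Lamb1: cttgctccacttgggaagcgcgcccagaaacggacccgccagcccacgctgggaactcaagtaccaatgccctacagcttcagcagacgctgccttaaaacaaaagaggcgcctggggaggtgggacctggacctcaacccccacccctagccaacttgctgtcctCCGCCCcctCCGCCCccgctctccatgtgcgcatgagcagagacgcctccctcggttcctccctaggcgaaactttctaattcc
Lama5: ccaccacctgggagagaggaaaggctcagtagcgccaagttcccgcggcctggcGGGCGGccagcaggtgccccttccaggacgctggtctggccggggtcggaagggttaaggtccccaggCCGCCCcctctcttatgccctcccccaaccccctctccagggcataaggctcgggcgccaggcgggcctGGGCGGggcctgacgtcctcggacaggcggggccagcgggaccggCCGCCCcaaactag
Sparc: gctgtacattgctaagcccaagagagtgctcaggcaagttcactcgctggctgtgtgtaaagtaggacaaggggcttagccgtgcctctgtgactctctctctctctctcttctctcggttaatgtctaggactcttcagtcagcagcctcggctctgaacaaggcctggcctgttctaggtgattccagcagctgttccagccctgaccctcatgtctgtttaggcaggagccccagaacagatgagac
Spp1: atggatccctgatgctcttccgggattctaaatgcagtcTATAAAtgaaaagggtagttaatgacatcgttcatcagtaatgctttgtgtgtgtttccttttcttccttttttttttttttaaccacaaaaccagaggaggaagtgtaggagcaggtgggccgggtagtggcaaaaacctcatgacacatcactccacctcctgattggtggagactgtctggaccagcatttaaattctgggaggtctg
The Lamb1 window held 2 GC boxes and the Lama5 window 4, while the windows of Sparc and Spp1 held none. A GC box is in 32.7% of the 32851 windows of that length in the table. Spp1 held 1 match to TATAAA, which is in 12.4% of windows. None of the 4 held a match to the GATA, SOX or octamer letters, which are in 9.99%, 10.7% and 1.60% of windows.

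Genes that tie cells to the matrix had mostly negative fold changes too. Of 8 well-counted genes among integrins, their partners and osteopontin, 7 had negative fold changes (median -0.67), and Spp1 and Fn1 were lower in all null embryos without overlap, against 1.88% of genes in the background. Spp1, the secreted integrin ligand osteopontin, was at 441 and 279 CPM in the wild-type female and male and at 310 and 293 CPM in the heterozygous ones. It was at 11.8, 11.7, 107 and 60.9 CPM in null F1, F2, M1 and M2. The female null embryos were the lowest, and the log2 fold change was -3.37 ± 0.67 (SE, edgeR adjusted p = 0.931). Fn1, fibronectin, averaged 44.7 ± 22.9 CPM in null and 129 ± 54 CPM in Nanog-bearing embryos (SD, n = 4). Serpinh1, the chaperone of collagen folding, was at 17.2, 0.279, 27.9 and 1.46 CPM in null F1, F2, M1 and M2 and at 83.5 to 163 CPM in the Nanog-bearing embryos. Of the 4 other well-counted genes of collagen chaperones and hydroxylases, none was without overlap, and the median of all 5 was -0.10.

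Of 9 well-counted genes of DNA methylation, 7 had negative fold changes, with a median of -0.69, and none was called. Zfp57, Uhrf1 and Dnmt3b were lower in every null embryo than in any Nanog-bearing one, against 1.88% of genes in the background, and of these Zfp57 alone was without overlap in all 5 scalings. Zfp57 is a zinc finger protein that keeps methylation at imprinted regions. It was at 104 and 110 CPM in the wild-type and 84.1 and 78.7 CPM in the heterozygous female and male, and at 17.5, 35.6, 34.3 and 32 CPM in null F1, F2, M1 and M2. The log2 fold change was -1.65 ± 0.35 (SE), and it was -1.66 without null M2. Uhrf1, which recruits the maintenance methyltransferase, averaged 119 ± 29.1 CPM in null and 214 ± 32.8 CPM in Nanog-bearing embryos. Dnmt3b, a de novo methyltransferase, averaged 94.8 ± 29.1 and 153 ± 17.7 CPM (SD, n = 4 each). The demethylating dioxygenases did not share a direction: Tet1 was at -0.89 ± 0.37 and Tet2 at 0.57 ± 0.26 on the log2 scale, neither called. Summed over the 17 genes of the list, which weights Tet2 more, the groups overlapped at 1217 ± 109 CPM in null and 1393 ± 101 CPM in Nanog-bearing embryos. The median of the list was -0.41 without null M2, and -0.02 over its members above 100 CPM.

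Among the junction and polarity genes of epithelia, 16 of 22 well-counted genes had negative fold changes (median -0.31). Ezr, which links actin to the apical membrane, was at 80, 98.5, 78 and 46.4 CPM in null F1, F2, M1 and M2 and at 114 to 203 CPM in the Nanog-bearing embryos. Dsp, the desmosomal plaque protein, was at 73.7, 39.2, 67.1 and 34.2 CPM and at 91.8 to 135 CPM. In both genes, 2 of the 22, every null embryo was below every Nanog-bearing embryo, against 1.88% of genes in the background. As a group, however, the members were low in F2 and M2 only: their median deviation from the Nanog-bearing mean was -0.61 and -0.63 there, and 0.05 and 0.02 in F1 and M1. The summed level was 3800 to 6500 CPM in null embryos and 5729 to 5918 CPM in the Nanog-bearing ones, with a far wider spread in the null group (SD 1320 against 86.7, n = 4 each).

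**Figure D2:**
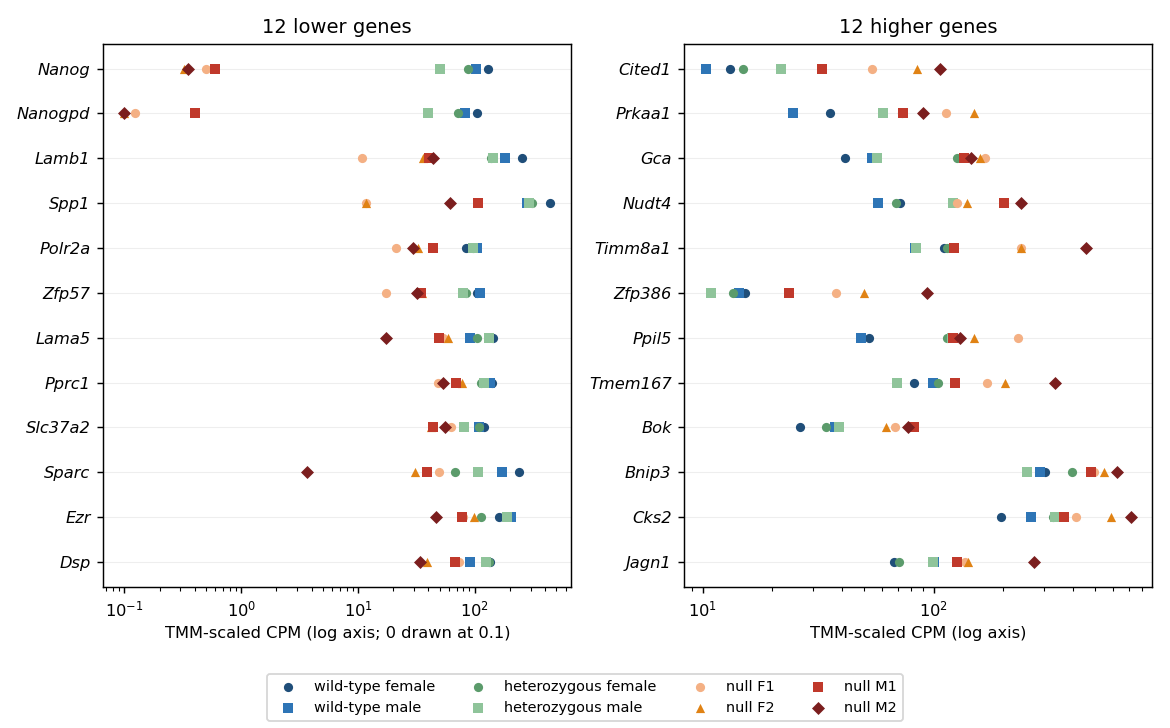
TMM-scaled CPM (log axes) of the 12 lower and the 12 higher well-counted genes with the smallest unadjusted p among those whose groups did not overlap, 1 symbol per embryo. Nanog and Nanogpd lie at or below 0.602 CPM in the null embryos, while most of the others differ by far less and null M2 (dark diamonds) is often the farthest out among the higher genes.

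The 12 lower genes also held Polr2a, Pprc1 and Slc37a2. Polr2a, the largest subunit of RNA polymerase II, was at 83.6 and 104 CPM in the wild-type and 96.3 and 96.8 CPM in the heterozygous female and male. Null F1, F2, M1 and M2 had 21.2, 32.9, 43.8 and 29.6 CPM. Both groups were tight, at 31.9 ± 9.36 and 95.3 ± 8.59 CPM (SD, n = 4), and the log2 fold change was -1.59 ± 0.33 (SE, edgeR adjusted p = 0.931). Pprc1, a coactivator of mitochondrial gene programs, averaged 62.2 ± 13.8 CPM in null and 127 ± 13.1 CPM in Nanog-bearing embryos. Slc37a2, a sugar phosphate transporter, averaged 50.8 ± 9.6 and 104 ± 16.2 CPM. All 12 lower genes stayed without overlap in all 5 scalings.

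Of the higher genes, Cited1 had the largest difference. It encodes a coactivator that binds CBP and p300, and it was at 13.1 and 10.3 CPM in the wild-type and 14.9 and 21.9 CPM in the heterozygous female and male. In null F1, F2, M1 and M2 it was at 54.3, 85, 32.8 and 107 CPM. The log2 fold change was 2.25 ± 0.48 (SE, edgeR adjusted p = 0.931), and 1.85 without null M2. Cited1 was on the list of primitive endoderm genes, of whose 8 well-counted members 5 had negative fold changes with a median of -0.24, so its direction was not that of its list. No other of the 8 was without overlap, and Pdgfra, the receptor that marks this lineage early, was at 24.8 ± 14.7 CPM in null and 67 ± 32.2 CPM in Nanog-bearing embryos. Below the limit of 32 CPM, the tested members of the list had negative fold changes, except Ttr. Cubn, Srgn and Aqp8 were lower without overlap there, as were 4.56% of all tested genes below the limit. Cubn averaged 3.62 ± 3.34 CPM in null and 27 ± 8.38 CPM in Nanog-bearing embryos (SD, n = 4), and Aqp8 0.0251 ± 0.0502 and 23.3 ± 17.1 CPM.

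Some of the higher genes act at mitochondria and in cell death. Bok, a BCL2 family effector, was at 68.3, 62.5, 82.7 and 77.2 CPM in null F1, F2, M1 and M2 and at 26.3 to 39 CPM in the Nanog-bearing embryos. Its log2 fold change was 1.09 ± 0.32 (SE), and null M2 was not the farthest. Bnip3, a mitochondrial BH3 protein of mitophagy, averaged 536 ± 64 CPM in null and 311 ± 62.5 CPM in Nanog-bearing embryos (SD, n = 4). Bad, a BH3-only protein, averaged 150 ± 53.9 and 79.4 ± 9.3 CPM. Cycs, cytochrome c, averaged 658 ± 259 and 424 ± 51.8 CPM, with 1040 CPM in null M2. The list of p53 targets and BCL2 family genes also held Cycs, which is not of the BCL2 family. Among its 18 well-counted genes, 12 had positive fold changes (median 0.17). Bok, Bad and Cycs were higher without overlap, against 3.19% of genes in the background. Pmaip1, a BH3-only gene of the BCL2 family below the limit of 32 CPM, went the other way. Its mean was 11.9 CPM and its log2 fold change -4.31, lower without overlap, as were 4.56% of tested genes below the limit. The log2 fold change of Cycs went from 0.60 to 0.32 without null M2. The p53 target Cdkn1a, a CDK inhibitor, was at 60, 78.5, 36.9 and 35.4 CPM in the null embryos and at 12.2, 11.6, 44.5 and 21.6 CPM in the wild-type and heterozygous embryos, with overlapping ranges. Its log2 difference was 2.04 ± 0.53 (SE) against wild type and 0.69 ± 0.49 against heterozygous.

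The other higher genes were of varied function. Prkaa1, a catalytic subunit of the energy sensor AMPK, averaged 107 ± 32.6 CPM in null and 48.3 ± 22.1 CPM in Nanog-bearing embryos. Timm8a1, a chaperone of mitochondrial import, averaged 264 ± 139 and 98.2 ± 16.8 CPM, and the log2 fold change went from 1.44 to 0.88 without null M2. Cks2, a partner of cyclin-dependent kinases, averaged 521 ± 161 and 281 ± 65.2 CPM (SD, n = 4 each). Gca, Nudt4, Zfp386, Ppil5, Tmem167 and Jagn1 completed the 12, with log2 fold changes of 1.00 to 1.92. Of these 12, Gca, Nudt4 and Ppil5 overlapped between the groups in at least 1 of the other scalings. Sfn, the 14-3-3 sigma protein of epithelia, was higher without overlap at 1350 ± 325 CPM against 895 ± 84.7 CPM (SD, n = 4).

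Proteasome genes, which encode the protease that degrades ubiquitin-tagged proteins, lay on the higher side. All 34 of them had positive fold changes, with a median of 0.40 against 0.08 for all well-counted genes, but none was called and 3 (Psma2, Psmb3 and Psmd8) were higher without overlap, against 3.19% in the background. Psmd8, a subunit of the regulatory particle, was at 395, 445, 377 and 474 CPM in null F1, F2, M1 and M2 and at 285 to 346 CPM in the Nanog-bearing embryos. Psma2 and Psmb3, of the catalytic core, were at 348 to 721 and 501 to 897 CPM in null and at 239 to 329 and 375 to 463 CPM in Nanog-bearing embryos. The embryos did not line up with genotype for the group as a whole: the median deviation of its members was 0.27, 0.46, -0.04 and 0.74 in F1, F2, M1 and M2, and -0.24, 0.01, 0.17 and 0.06 in the wild-type female and male and heterozygous female and male. Null M1 was thus below both heterozygous embryos. Without null M2 the median was 0.23 with 32 of 34 genes higher, and with library totals it was 0.28 with 30 of 34.

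Cytosolic ribosomal protein genes had positive fold changes in 77 of 79 cases, with a median of 0.24. Their summed level was 102100 CPM in null M2 and 58670 to 66070 CPM in the other 3 null embryos, against 57620 to 63640 CPM in the Nanog-bearing embryos. Without null M2 the median was 0.06 with 57 of 79 higher, and the median of all well-counted genes in that fit was 0.06. Of the 79, 3 were higher without overlap, Rpl19 and Rpl24 among them, a share near the 3.19% of the background. Reads of ribosomal protein genes and their processed copies may have been split in the counting. Mitochondrial ribosomal protein genes were looked at after the values were seen. Of 67 well-counted genes 56 had positive fold changes, as did 58.1% of all well-counted genes, and the median was 0.31 (0.11 without null M2). Mrpl12, Mrpl20, Mrpl22, Mrpl36, Mrpl47, Mrps12 and Mrps28, 7 of the 67, were higher without overlap, against 3.19% in the background. Respiratory chain genes had positive fold changes in 56 of 73 cases, with a median of 0.13 that turned to -0.02 with a length offset, and of their members Cycs was higher without overlap.

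**Figure D3:**
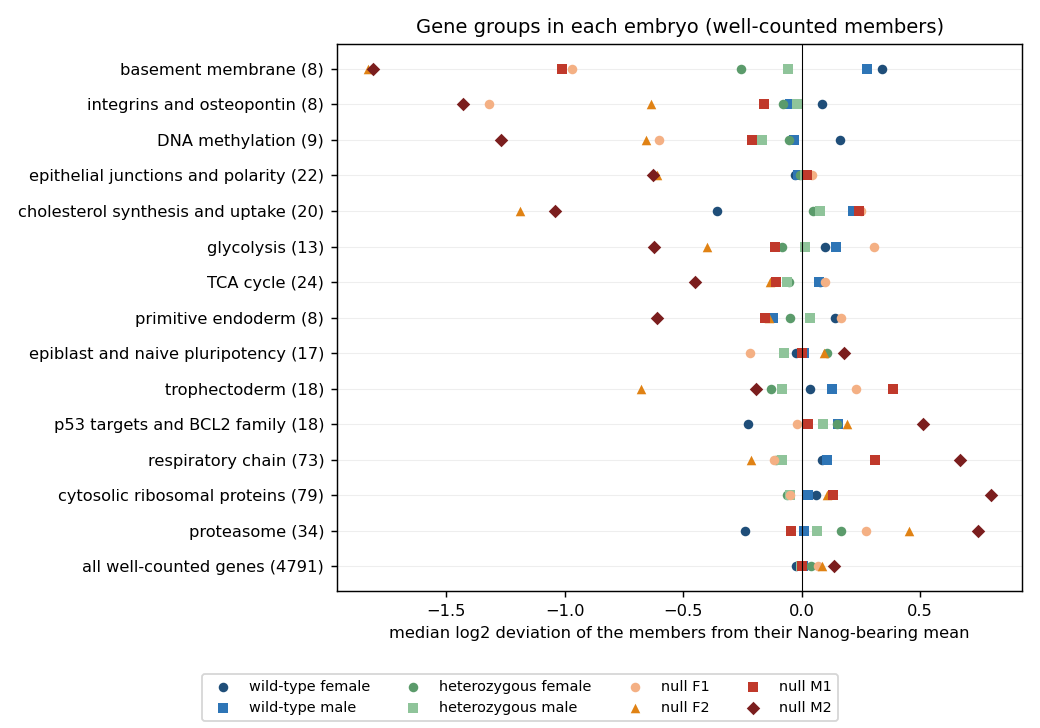
For each gene group (number of well-counted members in brackets), the median log2 deviation of its members from their mean in the Nanog-bearing embryos, 1 symbol per embryo. In the basement membrane group the 4 null embryos lie at -1.83 to -0.97, below all Nanog-bearing embryos, while the ribosomal and respiratory chain groups are spread mainly by null M2 at 0.80 and 0.67.

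Of 13 well-counted glycolysis genes 12 had negative fold changes (median -0.13), but 7 of 13 were positive without null M2 (median 0.08). For the TCA cycle 18 of 24 were negative (median -0.10), and 13 of 24 without null M2. Its members Sdha, of complex II, and Aco1, the cytosolic aconitase, were lower without overlap in all 5 scalings, 2 of 24 against 1.88% in the background. They were at 285 ± 88.8 and 54.2 ± 12.8 CPM in null against 399 ± 41.3 and 80.1 ± 6.61 CPM in Nanog-bearing embryos. Cholesterol synthesis genes were low in F2 and M2, with median deviations of -1.19 and -1.04, and high in F1 and M1, at 0.25 and 0.24. The wild-type female was also low, at -0.36, so the spread within the null group was wider than the difference between the groups.

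Over their well-counted members, the lineage lists as wholes did not separate the groups. Of 17 well-counted epiblast and naive pluripotency genes, from which Spp1 was the single one without overlap, 10 had positive and 7 negative fold changes, with a median of 0.02 that was -0.11 without null M2. Pou5f1 was at 454 ± 57.9 CPM in null and 437 ± 66.2 CPM in Nanog-bearing embryos (SD, n = 4), a log2 fold change of 0.06 ± 0.21 (SE) whose sign changed with the scaling. Sox2 was at 0.186, 0.558, 19.3 and 26 CPM in null F1, F2, M1 and M2 and at 3.55 to 18.9 CPM in the Nanog-bearing embryos, so the null females were lowest and the null males highest. The group means were 11.5 ± 13.1 and 9.97 ± 6.46 CPM (SD, n = 4), while the log2 fold change from the fit with a sex term was -1.62 ± 1.79 (SE), which turned to 0.34 with no sex term. Tdgf1, the Nodal coreceptor, was at 30.1, 186, 78.6 and 40.5 CPM in null F1, F2, M1 and M2 and at 126 to 249 CPM in Nanog-bearing embryos, with overlapping ranges. Among 18 trophectoderm genes 11 were positive and 7 negative (median 0.05). Gata6 was at 0.34 ± 0.29 and Cdx2 at -0.22 ± 0.34 on the log2 scale.

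Of the 38 gene lists, 36 had well-counted members. In 5 of them at least 2 well-counted genes were lower without overlap and none higher (basement membrane, integrins and osteopontin, DNA methylation, junctions and the TCA cycle), and in 3 at least 2 were higher and none lower (proteasome, cytosolic ribosomal proteins, and p53 targets with the BCL2 family). The background shares are 1.88% lower and 3.19% higher, and a long list such as that of ribosomal proteins reaches such a count at a share near them. Of the list members named, Uhrf1, Dnmt3b, Jarid2, Frs2, Pold1, Gmnn, Sfn, Cycs, Rpl19 and Rpl24 overlapped between the groups in at least 1 of the other scalings. In 17 lists no well-counted gene was without overlap, among them those of the Wnt, Hippo, LIF and STAT3, and Nodal with TGF-beta pathways, the BAF complex, splicing factors and chaperonins. In the FGF and ERK list of 13 well-counted genes, Frs2, the receptor adaptor, was the single gene without overlap, at 43.6 ± 13.1 CPM in null and 66.8 ± 10.9 CPM in Nanog-bearing embryos. Its members under the limit went both ways. Among them Fgf4 was lower without overlap but near the floor, at 0 to 0.0502 CPM in null and 0.0634 to 14.9 CPM in Nanog-bearing embryos. Among 41 DNA replication genes the signs were even (20 negative, median 0.01), with Mcm7 and Pold1 lower and Gmnn, the licensing inhibitor, higher without overlap. Jarid2, a partner of Polycomb complex PRC2, was lower at 510 ± 77.4 against 684 ± 95.4 CPM.

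The cell lines, which the embryo comparison did not use, gave a separate readout of lineage. A gene was called high in a lineage where its log2 CPM was at least 2 above both others. Of the 90 lower genes, 5 (5.56%) were XEN-high against 1.36% of all well-counted genes: Lamb1, Lamc1, Sparc, Serpinh1 and Rhpn2. Another 5 (5.56%) were ES-high against 2.36%: Nanog, Nanogpd, Spp1, Zfp57 and Epha4. Without Nanog, the gene that is missing, and its pseudogene, 3 of 88 lower genes (3.41%) were ES-high, against 2.32% of the other well-counted genes. These shares do not stand for a fall of the whole lineage sets. Taken over all 65 well-counted XEN-high genes, the log2 difference between null and Nanog-bearing embryos was 0.0483 at the median. Over all 113 ES-high genes it was 0.163, and over all well-counted genes 0.0824. In the lines, Lamb1 was at 9840 CPM in XEN, 248 in TS and 22.7 in ES cells, and Spp1 was at 684 CPM in ES, 14.8 in TS and 0.176 in XEN cells. Of the 153 higher genes, 1 was XEN-high (Cited1), 3 were TS-high (Bok, Crip2 and Sfn; 1.96% against 1.17%) and 2 were ES-high (Mylpf and Rragd). Lines and embryos were made with different kits, so only the lines are compared with each other.

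Heterozygous embryos were set beside wild-type ones for the same genes. Of the 90 lower genes, both heterozygous embryos were below both wild-type embryos for 21 (23.3%, against 16.7% of all well-counted genes) and above them for 7 (7.78%, against 19.3%). Nanog, Lamb1, Zfp57 and Sparc were among the 21. Of the 153 higher genes, both heterozygous embryos were above both wild-type embryos for 35 (22.9%) and below for 18 (11.8%, against 16.7%). The heterozygous group is part of the control in the comparison that chose these genes, so the counts are a description. Prkaa1 was at 35.7 and 24.6 CPM in the wild-type female and male, 72.7 and 60.3 CPM in the heterozygous ones and 74 to 149 CPM in null embryos. Ppil5 was at 52.7 and 48.7, 114 and 120, and 121 to 233 CPM.

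Transcript length moved with these differences. Over 4753 well-counted genes with a length, the log2 fold change had a rank correlation of -0.246 with transcript length. The median length was 1140 bases for the higher genes, 3160 for the lower and 1780 for all well-counted genes. The share of transcripts over 4000 bases was taken within the scaled counts of well-counted genes with a length. It was 7.37 ± 0.699% in null and 8.16 ± 0.234% in Nanog-bearing embryos (SD, n = 4), and all 4 null embryos were below the others. A two-sided exact permutation test gave p = 0.0286, the smallest that 70 splits allow, and adjusted p = 0.0858 over 3 quantities. The pattern was steepest in null M2, where genes up to 500 bases were at a median of 0.75 above the Nanog-bearing mean and genes over 6000 bases at -0.38. With an offset for length, 120 genes were higher and 97 lower without overlap. Of the groups, the proteasome median became 0.26, the ribosomal one 0.07 and the respiratory chain one -0.02, while the basement membrane stayed at -1.28, integrins and osteopontin at -0.66 and DNA methylation at -0.67. The part of RNA quality in these patterns was not tested.

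**Figure D4:**
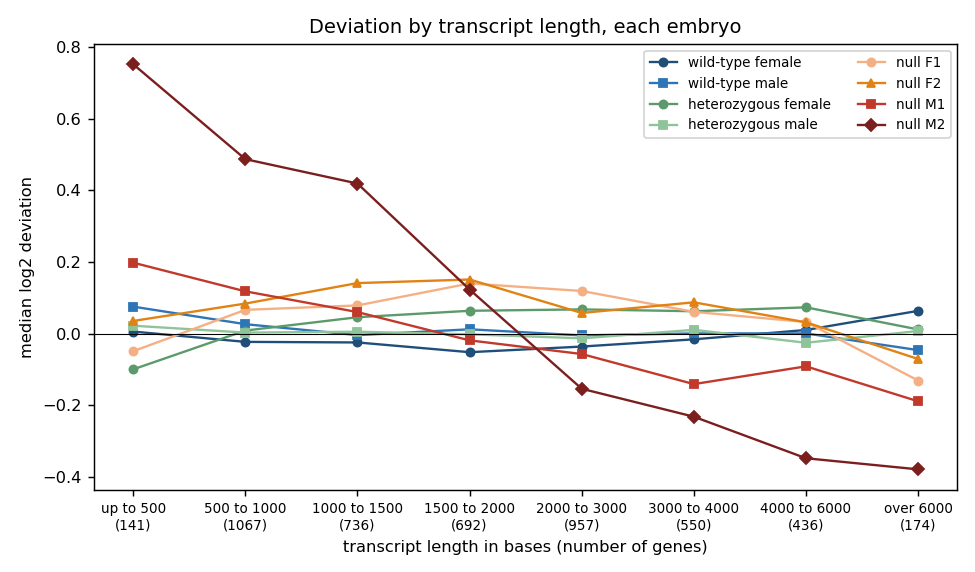
Median log2 deviation from the Nanog-bearing mean (vertical) over bins of transcript length in bases (horizontal, number of genes in brackets), 1 line per embryo. Null M2 runs from 0.75 in the shortest bin to -0.38 in the longest, and the other 7 embryos stay between -0.19 and 0.20.

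**Figure D5:**
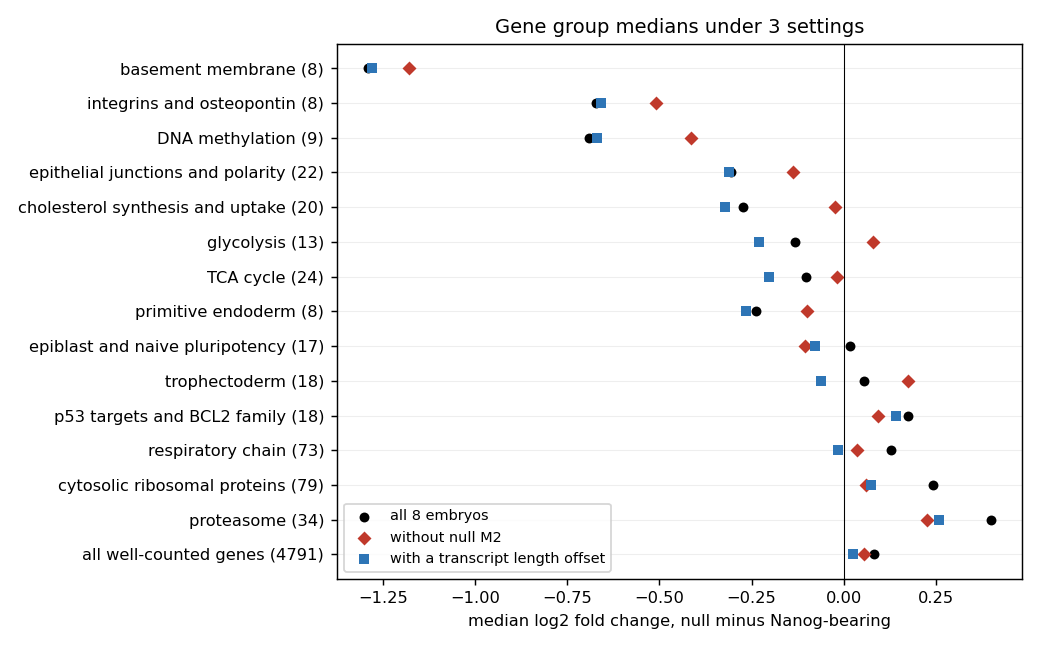
Median log2 fold change of each gene group (well-counted members in brackets) with all 8 embryos (black), without null M2 (red) and with a transcript length offset (blue). Basement membrane stays at -1.29 to -1.18 in all 3, whereas glycolysis, the respiratory chain and the epiblast and trophectoderm lists change sign in at least 1.

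The authors' deposited table lists 71 genes as DOWN and 7 as UP in null embryos. Of the 71, 1 was well counted (Nanog), 64 were under 10 CPM, and the median of their means was 2.39 CPM, so the list and the genes described here hardly meet. All 71 had negative fold changes in the present fit and 1 was called. The list comes from the same embryos, so the shared sign is no separate evidence. Of the 71, 30 were lower without overlap, Nanog among them, as were 3.57% of all tested genes. The list was chosen as lower in these embryos, so that excess is no separate evidence either. Other tools differed in the number of genes called, and limma voom with quality weights called 0. DESeq2 called 87 genes, 16 of them well counted and 13 of those among the 24 genes described: Nanog, Nanogpd, Lamb1, Spp1, Polr2a, Zfp57, Sparc, Cited1, Prkaa1, Gca, Nudt4, Timm8a1 and Zfp386. Those 24 were chosen by their p in the same counts, so the DESeq2 calls are not separate evidence for them. The edgeR fit without the filter on low counts called 50, of which 32 were well counted.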

How the data were processed

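RNA-seq of 8 single mouse embryos was used. Per the labels' protocols, cDNA was amplified with SMARTer UltraLow and libraries were made with a TruSeq DNA kit. The authors deposited raw counts per gene symbol, and their processing, per the submitters' processing notes, used TopHat 1.3.1, edgeR and mm9. Which program and annotation did the counting, and whether strand was used, is not stated. In the second deposited table the unit is of the kind other: its direction column is a word, and its 22 value columns were not used.

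R 4.3.3 with edgeR 4.0.16 was used to fit the embryos (robust quasi-likelihood test, TMM, filterByExpr, Benjamini-Hochberg, threshold 0.05) with 3 genotype groups and sex as terms. SEs were derived from the fold change and the F statistic of its test. Depth was 14768624 to 32231620 counts per embryo, and the biological coefficient of variation was 0.979. Transcript length is the median over the transcripts of a gene in GENCODE vM21 and was found for 99.2% of well-counted genes. The line libraries were summed per line. DESeq2 1.42.0, limma 3.58.1 and the length offset were alternatives, and the scripts were tested on simulated data.

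The comparison, the lists and the rules were chosen with earlier results of these data known. Named were Nanog, Pou5f1, Sox2, Gata6 and Cdx2, the 12 lower and 12 higher well-counted genes without overlap by smallest unadjusted p (predicted genes left out), and up to 4 such members per list, or 2 members as values. Lama1, Col4a1, Nid1, Nid2, Dag1, Pdgfra, Tet1, Tet2, Pyy and the genes of mitochondrial ribosomal proteins were picked with their values in view, likewise the lineage genes given by name only. Gata4, Sox17, Cubn, Srgn, Aqp8, Ttr, Fgf4 and Pmaip1 were also picked in this way. Some members that the rule names are not reported here.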

Additional observations from a re-analysis of the deposited data

Results flagged for a closer look

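In groups of 4 embryos, 14 of 202 values had 1 embryo set far from the other 3 (a gap past the limit of Dixon's test), and chance flags about 1 in 20 groups. Null M2 was the embryo set apart in 7 of the 14. It was high for Jagn1 (271 CPM, next 141), Cycs (1040 CPM, next 573), Rpl19 (1930 CPM, next 1040), Mrpl20 (208 CPM, next 131) and Mrpl36 (386 CPM, next 260), and for the summed cytosolic ribosomal proteins (102100 CPM, next 66070). It was low for Pold1, a DNA polymerase subunit (0.117 CPM, next 57.5). The highest null value of the summed integrins and osteopontin was in null M1 (781 CPM, next 546).

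The wild-type female was set apart in 5. It had the highest Nanog-bearing values of Lama1 (83.6 CPM, next 19.6), of Skil (51.9 CPM, next 26.8), a repressor of TGF-beta signalling, and of Pyy (287 CPM, next 17.3), which encodes a gut peptide hormone. Pyy was at 0 to 0.201 CPM in the null embryos but also at 0.0857 CPM in the heterozygous female, so its log2 fold change of -7.21 ± 1.42 (SE) rests on the wild-type pair. Within well-counted genes with a length, the same embryo had the highest share of counts in transcripts over 4000 bases (8.51%, next 8.06%). It also had the lowest median deviation of the p53 and BCL2 family genes (-0.225, next 0.089). In the wild-type male Pdia3, an ER disulfide isomerase, was at 588 CPM, next 139.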

How the results depend on the processing

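With DESeq2 in place of edgeR, the genes called numbered 87 against Nanog-bearing, 96 against wild-type and 77 against heterozygous embryos, and 104 for the interaction with sex. Without the filter on low counts they numbered 50, 37, 19 and 17. With limma voom and quality weights they numbered 0 in the first 3 comparisons, where 1167 genes had an unadjusted p under 0.05 against Nanog-bearing embryos. Against both Nanog-bearing and wild-type embryos 1 gene was called with library totals alone and with the length offset, both chosen after seeing the data, and without null F1 and M2. Against heterozygous embryos 2 were called among well-counted genes only and with no sex term, and 0 without null F1 and M2. Leaving out each embryo in turn gave 1 to 2, 1 to 3, 1 to 2 and 0 to 146 genes in the 4 comparisons, with the 146 interaction calls made without null M1. Genes without overlap numbered 186 to 456 higher and 127 to 208 lower with 1 embryo left out, which fewer values allow by construction, the 456 without null M1 and the 208 without null F2. They numbered 484 and 327 without null F1 and M2, and 88 and 31 at a limit of 100 CPM. At a limit of 10 CPM 183 were lower, and with library totals 97 were higher. At a difference of 1 log2 unit between lines, 14.4% of the lower genes were ES-high, against 6.39% of all well-counted genes. At that limit 11.1% of the lower and 5.88% of the higher genes were XEN-high, against 5.89% of all well-counted genes.

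The alternatives were compared for 68 of the genes named, and 63 kept the sign of their fold change in every alternative. Pou5f1 turned to -0.0481 with library totals, -0.0168 among well-counted genes only and -0.0876 with the length offset, and ranged from -0.0338 (without null F2) to 0.143 with 1 embryo left out. Sox2 turned to 0.34 with no sex term, and Cdx2 ranged from -0.417 to 0.00642 (without the wild-type female) with 1 embryo left out. Nid1 ranged from -0.544 to 0.148 (without null M2) and was 0.195 without null F1 and M2. Dag1 ranged from -0.795 to 0.179 (without null M2), turned to 0.0595 without the wild-type male and was 0.0169 without null F1 and M2. Of the 14 gene groups plotted, 8 kept the sign of their median in all 15 alternatives; the lists of glycolysis, cholesterol, respiratory chain, epiblast, trophectoderm and primitive endoderm genes did not. Where not stated, the cause was not tested. Library totals moved the median of all well-counted genes by -0.12, so directions of small size are relative to the scaling. No paired analysis was possible because the labels give the wild-type and heterozygous embryos no replicate number.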
